A study of Mus musculus with 6 samples.

Results

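The Cyp4 genes encode cytochrome P450 enzymes that add a hydroxyl group to the terminal (omega) carbon of fatty acids. Their liver transcripts were compared here between Zpbp2 KO mice and wild-type (WT) mice. The members were 8 genes chosen by name, 6 Cyp4a genes (Cyp4a10, Cyp4a14, Cyp4a31, Cyp4a32, Cyp4a12a and Cyp4a12b) with Cyp4f14 and Cyp4v3, out of 37991 gene IDs in the count table and out of 21 Cyp4 genes in it. All 8 were found by symbol, and all 8 passed the filter on low counts. The samples were poly(A)-selected, paired-end RNA-seq libraries of whole liver from 3 Zpbp2 KO males (B6.Zpbp2-/-, which lack zona pellucida binding protein 2) and 3 WT males, all of strain C57BL/6J and 12 weeks old. The part of Zpbp2 that the allele removes, the hour and feeding state at which livers were taken and the animals' litters were not stated in the sample labels.

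Omega-hydroxylation opens a side route of fatty acid breakdown. The hydroxylated fatty acid is oxidised to a dicarboxylic acid by alcohol and aldehyde dehydrogenases, and peroxisomes then shorten it. Some of these enzymes also act on arachidonic acid, from which they form 20-HETE, a lipid that constricts vessels. In mouse liver Cyp4a10 and Cyp4a14 are textbook targets of PPARa, the fatty acid-sensing nuclear receptor, and rise in fasting and under fibrate drugs. Cyp4a12a and Cyp4a12b are male-biased genes. Cyp4f14 belongs to a subfamily that hydroxylates leukotriene B4 and vitamin E, and Cyp4v3 is the mouse counterpart of human CYP4V2, the gene mutated in Bietti crystalline corneoretinal dystrophy.

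All 8 members encode the heme-binding signature of P450 enzymes, in which a cysteine holds the heme iron. These coding stretches are shown because they give the family's common feature and how far its letters have drifted. They were read from GENCODE M21 transcripts, 5′ to 3′, with bases that differ from Cyp4a10 in capitals.
Cyp4a10: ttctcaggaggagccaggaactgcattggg
Cyp4a31: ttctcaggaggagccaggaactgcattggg
Cyp4a32: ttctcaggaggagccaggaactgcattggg
Cyp4a12a: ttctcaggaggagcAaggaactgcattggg
Cyp4a12b: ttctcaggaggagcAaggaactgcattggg
Cyp4a14: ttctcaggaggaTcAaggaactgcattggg
Cyp4f14: ttctcGgCGggaCccaggaactgcatAggA
Cyp4v3: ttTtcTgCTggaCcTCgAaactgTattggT
Cyp4a31 and Cyp4a32 had the letters of Cyp4a10 over this stretch, Cyp4a12a and Cyp4a12b differed from it at 1 base, Cyp4a14 at 2, Cyp4f14 at 6 and Cyp4v3 at 10.

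How alike the copies are sets how well reads can be given to each of them. Over the whole coding sequence Cyp4a12a and Cyp4a12b were 98.5% identical, with 23 differing positions, and 35.8% of the 100-base windows of the Cyp4a12a transcript also occurred in another gene's transcript, as did 36.2% of those of Cyp4a12b. Cyp4a10, Cyp4a31 and Cyp4a32 were 96.0% to 97.2% identical to each other. The shared windows made up 12.7% of the Cyp4a10 transcript, 8.22% of Cyp4a31 and 20.1% of Cyp4a32. The Cyp4a32 transcript had 1530 bases, all of them coding, against 2109 for Cyp4a10 and 2509 for Cyp4a31, so these shares cover unlike stretches. Cyp4a14 and Cyp4f14 had 0 shared windows, and 5.77% of the Cyp4v3 windows were shared, all of them with the predicted gene Gm45753. Reads were 100 bases at each end, so a pair spans more than 1 window. Of all 60-base stretches of coding sequence, those with the most positions at which the close copies differ are shown next, with these positions in capitals, to show how few letters separate them (coding bases 646 to 705 of the Cyp4a12 pair and 200 to 259 of the other genes).
Cyp4a12a: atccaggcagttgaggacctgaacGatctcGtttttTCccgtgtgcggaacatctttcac
Cyp4a12b: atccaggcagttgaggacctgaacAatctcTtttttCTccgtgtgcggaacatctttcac
Cyp4a10: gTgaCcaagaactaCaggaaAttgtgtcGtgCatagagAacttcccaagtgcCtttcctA
Cyp4a31: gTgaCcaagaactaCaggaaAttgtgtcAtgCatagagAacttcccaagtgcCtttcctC
Cyp4a32: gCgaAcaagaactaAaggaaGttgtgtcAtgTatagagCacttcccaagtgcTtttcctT
Cyp4a12a and Cyp4a12b differed at 4 of these 60 positions. Cyp4a32 differed from Cyp4a10 at 9 and from Cyp4a31 at 8. Cyp4a10 and Cyp4a31 differed from each other at 2, so most capitals of this trio mark Cyp4a32. This holds for the stretch only. Over the whole coding sequence Cyp4a10 and Cyp4a32 were the closest pair, with 43 mismatched bases. Cyp4a31 had 52 with Cyp4a10 and 61 with Cyp4a32.

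**Figure D1:**
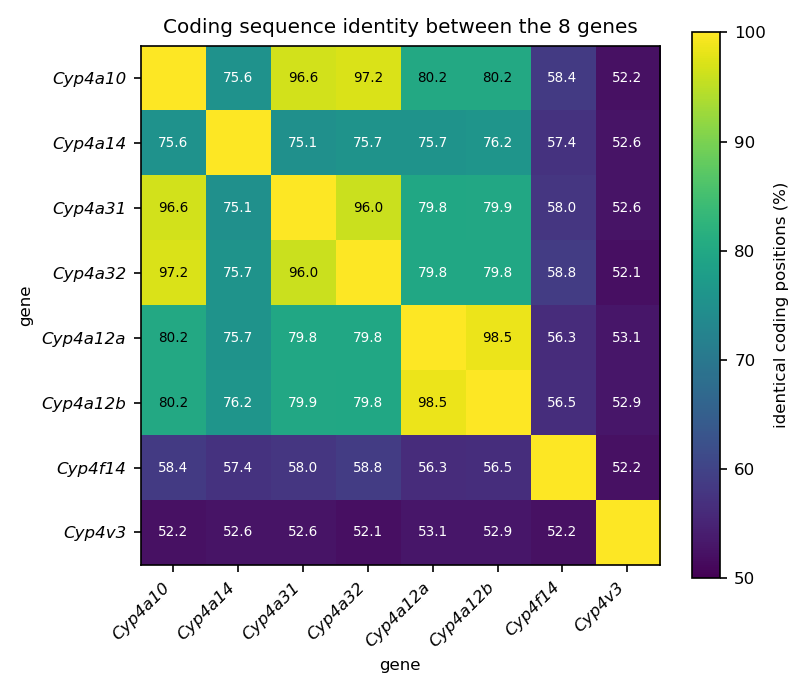
Percent of identical positions in the aligned coding sequences of each pair of the 8 genes, as a colour scale and a printed value. Cyp4a12a with Cyp4a12b (98.5%) and the Cyp4a10, Cyp4a31 and Cyp4a32 trio (96.0% to 97.2%) stand out from all other pairs.

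Total counts were 47821653 to 51328826 in the Zpbp2 KO libraries and 37904891 to 52955687 in the WT libraries. Zpbp2 had 0 counts in each Zpbp2 KO library, against 4, 13 and 7 in WT replicates 1 to 3, the direction that the labels give. These counts were few, and Zpbp2 did not pass the filter on low counts. An exact permutation test over the libraries gave p = 0.1, the smallest value it can give here. The 14 hepatocyte markers found in the table were all tested and summed to 126719 to 131380 CPM in Zpbp2 KO livers and 116511 to 124635 CPM in WT livers (CPM, the count scaled to the TMM-adjusted library size). Markers of kidney tubule, gut, pancreas and fat, tissues of which kidney also expresses Cyp4a genes, summed to 66.8 to 174 CPM in Zpbp2 KO livers and 81.8 to 95.9 CPM in WT livers. Of these 15 genes 4 passed the filter on low counts, 3 were at 0 in every library, and the kidney androgen-regulated gene Kap was among those at 0. The 5 tested erythroid markers were all above 0 on the log2 fold change scale. The 7 erythroid markers found in the table summed to 170 to 359 CPM in Zpbp2 KO livers and 154 to 227 CPM in WT livers. Kupffer cell and macrophage markers summed to 201 to 642 CPM in Zpbp2 KO and 356 to 516 CPM in WT livers. Zpbp2 KO replicate 2 was the lowest liver for 12 of these 12 markers and for 8 of 8 endothelial markers, and the highest for the 5 tested erythroid markers. Of the 12 Kupffer cell markers 11 were above 0, but 11 were below 0 without Zpbp2 KO replicate 3, and 8 were below 0 without Zpbp2 KO replicate 1 or WT replicate 3. T, NK and B cell markers (13 of 14 above 0) summed to 6.56 to 12.4 CPM in Zpbp2 KO and 4.95 to 9.80 CPM in WT livers. Their part in the results was not tested. In whole liver, fewer cells of a type and less RNA per cell cannot be told apart. WT replicate 1 stood apart for Cyp4a14, and it was the highest liver for 23 of 38 PPARa targets.

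Per kilobase of exon in GENCODE M21, the scale used here to compare levels of different genes, Cyp4v3 had the highest mean of the members in both groups. It averaged 142 ± 5.56 CPM per kilobase in Zpbp2 KO livers and 162 ± 17.8 in WT livers (SD, n = 3 each), and ranked 17 of the 65 tested P450 genes by this level. Cyp4a12a (126 ± 18.5 and 130 ± 7.201 CPM per kilobase in Zpbp2 KO and WT livers) and Cyp4f14 (141 ± 17.2 and 119 ± 9.31) came next. The ranges of Cyp4v3, Cyp4a12a and Cyp4f14 over the 6 livers overlapped. In Zpbp2 KO replicate 2, Cyp4f14 (159) and Cyp4a12a (140) exceeded Cyp4v3 (137). How reads shared by close copies were counted was not stated, and the place of the Cyp4a12 pair in this order may depend on it. The annotation behind the counts was not stated either, so the order and overlaps of all members may depend on the lengths used. Cyp4v3 had 3808 exon bases and 1575 coding bases, against 1536 and 1527 for Cyp4a32. Cyp4a12b (44.8 ± 2.19 and 41.6 ± 8.45) and Cyp4a10 (41.1 ± 4.79 and 45.1 ± 22.4) followed at a lower level, with no overlap with the first 3 and with overlap between themselves. Cyp4a32 stood at 14.0 ± 4.21 and 24.9 ± 12.0 and Cyp4a14 at 10.2 ± 1.34 and 29.5 ± 35.6 CPM per kilobase, again overlapping. The order of these 4 genes did not hold in every liver, since Cyp4a32 reached 38.8 and Cyp4a14 reached 70.3 CPM per kilobase in 1 WT liver each, and in WT replicate 1 Cyp4a14 exceeded Cyp4a10 (63.1) and Cyp4a12b (32.3). Cyp4a31 was the lowest member, at 1.47 ± 0.201 CPM per kilobase in Zpbp2 KO and 2.75 ± 0.892 in WT livers, below the lowest value of Cyp4a14 in every liver.

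**Figure D2:**
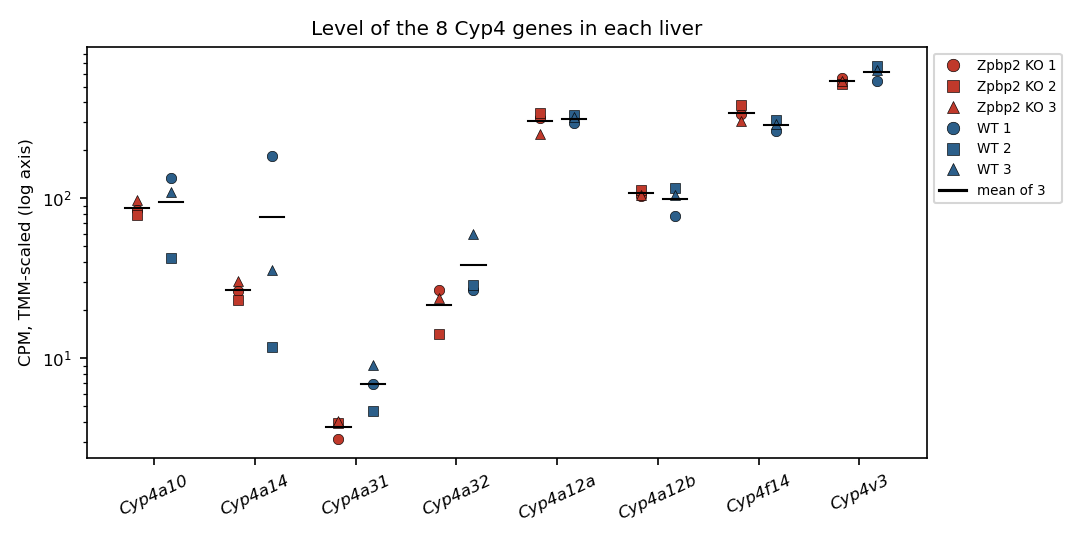
TMM-scaled CPM on a log axis for the 8 genes, with Zpbp2 KO livers in red left of WT livers in blue, 1 symbol per replicate number and a bar at the mean of 3. For Cyp4a14, WT replicate 1 lies at 183 CPM and the other 5 livers between 11.8 and 35.8 CPM.

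No member was called changed between the genotypes. The test was the quasi-likelihood F-test of edgeR, corrected over 14686 genes by the Benjamini-Hochberg method, and each edgeR adjusted p given here comes from it. At an adjusted p below 0.05 it called 0 of 8 members, against 0.0136% of all genes lower and 0% higher. DESeq2 called 0 of 8 as well, with 0.334% of all genes lower, 0.184% higher and 0.517% in either direction, and limma-voom called 0 of 8, with 0.0136% of all genes called. Where p was left unadjusted, 2 members lay under 0.05 on the lower side (2.93% of all genes) and 0 on the higher side (2.86%), against 5.79% of all genes in either direction. The same 2, Cyp4a31 and Cyp4a32, were lower in all Zpbp2 KO livers than in any WT liver, a pattern of 6.01% of all genes. The opposite pattern was seen for 0 members and 5.56% of all genes, and either pattern for 11.6%. Of the 8 log2 fold changes, Zpbp2 KO over WT, 6 were below 0, with a median of -0.16, where the median of all genes was 0.01 and 47.1% lay below 0.

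Cyp4a14 (ENSMUSG00000028715, chromosome 4), a PPARa-induced hydroxylase, had the most extreme fold change and the widest error. It stood at 26.2, 23.3 and 30.2 CPM in Zpbp2 KO livers, against 183, 11.8 and 35.8 CPM in WT livers. The Zpbp2 KO livers were close to each other and lay inside the WT range, and the WT mean was set by replicate 1. The log2 fold change was -1.53 ± 0.80 (SE), with a 95% interval of -3.36 to 0.29 and an edgeR adjusted p of 0.798. Without WT replicate 1 it was 0.17 (edgeR adjusted p = 0.938). Among the 9780 tested genes whose mean log2 CPM reached 2, Cyp4a14 had the 5th largest SD of log2 CPM between WT livers, 1.99, but ranked 4361 between Zpbp2 KO livers, with 0.19. Its highest and lowest WT livers differed 15.5-fold, and the Zpbp2 KO livers 1.30-fold. This ranking was chosen after the values were seen.

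Cyp4a10 (ENSMUSG00000066072, chromosome 4), the other classical PPARa target of the family, showed the same order of WT livers with a smaller span. It had 84.1, 78.2 and 97.9 CPM in Zpbp2 KO livers, against 133, 42.1 and 110 CPM in WT livers. Here too the Zpbp2 KO livers fell between the WT extremes. The log2 fold change was -0.13 ± 0.35, with a 95% interval of -0.93 to 0.67, and it was 0.19 without WT replicate 1. Its SD of log2 CPM was 0.17 between Zpbp2 KO livers and 0.89 between WT livers, where it ranked 57 of 9780.

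Cyp4a31 (ENSMUSG00000028712, chromosome 4), a close copy of Cyp4a10, had the smallest p of the 8 members. Its values were 3.12, 3.92 and 4.04 CPM in Zpbp2 KO livers and 6.90, 4.67 and 9.15 CPM in WT livers. All Zpbp2 KO livers lay below all WT livers, the nearest being Zpbp2 KO replicate 3 and WT replicate 2. Counts behind these values were 149, 179 and 211 in Zpbp2 KO and 362, 250 and 349 in WT libraries. The log2 fold change of -0.90 ± 0.26 had a 95% interval of -1.48 to -0.31, and the gene ranked 153 of 14686 by p. It did not pass the adjustment in edgeR (adjusted p = 0.705) or in DESeq2 (adjusted p = 0.0890). Without WT replicate 1 the log2 fold change was -0.90, as with all livers.

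Cyp4a32 (ENSMUSG00000063929, chromosome 4), the third of the close copies, had 26.6, 14.3 and 23.8 CPM in Zpbp2 KO livers, against 26.8, 28.6 and 59.5 CPM in WT livers. The groups did not overlap, but Zpbp2 KO replicate 1 and WT replicate 1 were almost level, and WT replicate 3 was far above the rest. The log2 fold change was -0.83 ± 0.34 (95% interval -1.60 to -0.05), and its edgeR adjusted p was 0.798. Without WT replicate 3 the log2 fold change was -0.38.

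Reads of the 3 close copies may have been divided between them by the counting, so their sum was fitted as 1 gene. Cyp4a10, Cyp4a31 and Cyp4a32 together had 114, 96.4 and 126 CPM in Zpbp2 KO livers, against 167, 75.4 and 179 CPM in WT livers. The sum overlapped between the groups, unlike Cyp4a31 and Cyp4a32 alone, since Cyp4a10 made up most of it. Its log2 fold change was -0.33 ± 0.29 (edgeR adjusted p = 0.839).

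The male-biased pair had intervals that span 0. Cyp4a12a (ENSMUSG00000066071, chromosome 4), a major arachidonic acid omega-hydroxylase of male mice, had 320, 339 and 254 CPM in Zpbp2 KO livers, against 296, 330 and 321 CPM in WT livers. The groups overlapped, and the lowest liver was Zpbp2 KO replicate 3. Its log2 fold change was -0.05 ± 0.12 with a 95% interval of -0.34 to 0.23. Cyp4a12b (ENSMUSG00000078597, chromosome 4) had 103, 113 and 106 CPM in Zpbp2 KO livers and 77.3, 117 and 105 CPM in WT livers. WT replicate 1, the liver with the highest Cyp4a14, was the lowest here. The log2 fold change of Cyp4a12b was 0.11 ± 0.15 (95% interval -0.23 to 0.45). Summed to 1 gene, the pair stood at 412 ± 47.5 CPM in Zpbp2 KO livers and 415 ± 37.7 CPM in WT livers (SD, n = 3 each), a log2 fold change of -0.01 ± 0.12.

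Cyp4f14 (ENSMUSG00000024292, chromosome 17) had 335, 385 and 302 CPM in Zpbp2 KO livers, against 265, 309 and 293 CPM in WT livers. It was the member with the highest log2 fold change, 0.24 ± 0.12 (95% interval -0.03 to 0.51), and 1 Zpbp2 KO liver, replicate 3, fell below the highest WT liver. Cyp4v3 (ENSMUSG00000079057, chromosome 8) had 563, 521 and 538 CPM in Zpbp2 KO livers and 542, 675 and 631 CPM in WT livers. WT replicate 1 lay among the Zpbp2 KO livers and the other WT livers above them. The log2 fold change of Cyp4v3 was -0.19 ± 0.11 (95% interval -0.43 to 0.06), and neither gene passed the test (edgeR adjusted p = 0.798 for both).

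**Figure D3:**
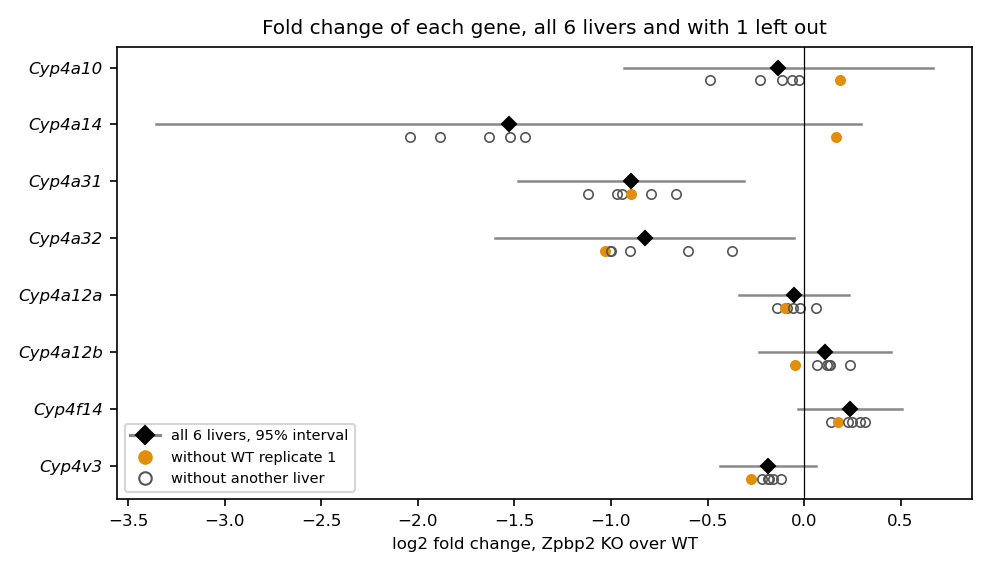
Log2 fold change, Zpbp2 KO over WT, of the 8 genes with all 6 livers (black diamonds, with 95% intervals from edgeR) and with 1 liver left out (circles, filled orange for WT replicate 1). Cyp4a14 moves to 0.17 and Cyp4a10 to 0.19 without WT replicate 1, while Cyp4a31 and Cyp4a32 stay below 0 whichever liver is left out.

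Shares within the Cyp4a family do not depend on scaling between libraries, but may depend on how reads shared by close copies were counted. Shares per kilobase may also depend on the exon lengths used. Per kilobase, Cyp4a12a made up 54.2%, 57.4% and 46.8% of the summed counts of the 6 Cyp4a members in Zpbp2 KO livers, against 39.7%, 59.2% and 46.5% in WT livers. Cyp4a14 took 4.14%, 3.67% and 5.19% in Zpbp2 KO livers, against 22.8%, 1.97% and 4.83% in WT livers. WT replicate 1 was thus the liver with the most Cyp4a14 and the least Cyp4a12a by share, and WT replicate 2 the reverse. The ratio of the summed counts of Cyp4a10, Cyp4a14, Cyp4a31 and Cyp4a32 to those of the Cyp4a12 pair was 0.331, 0.265 and 0.434 in Zpbp2 KO livers, against 0.936, 0.195 and 0.505 in WT livers. The Zpbp2 KO ratios lay inside the WT range. All 6 genes together summed to 563, 572 and 515 CPM in Zpbp2 KO livers and 723, 534 and 640 CPM in WT livers, with overlap.

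**Figure D4:**
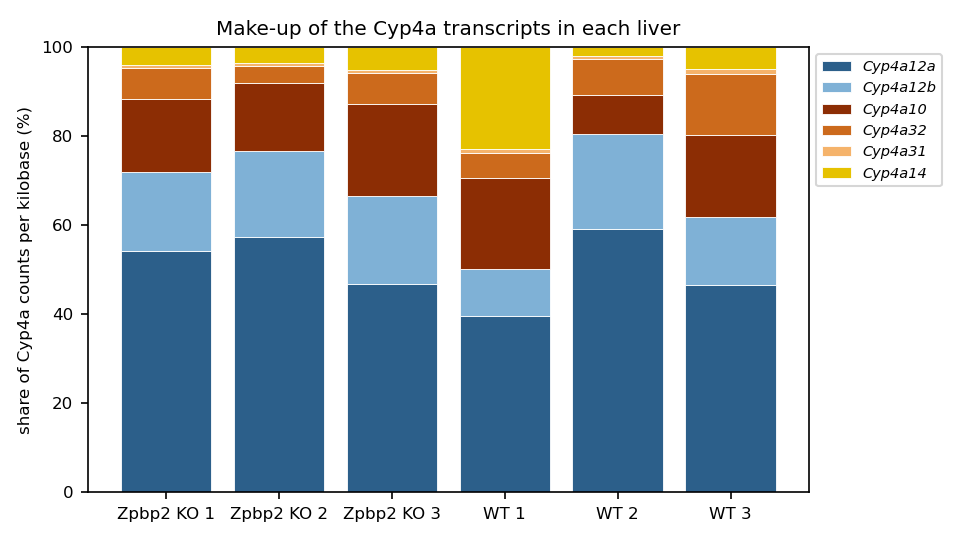
Stacked bars give each Cyp4a gene's share, in percent, of the summed Cyp4a counts per kilobase in each liver, Zpbp2 KO livers left and WT livers right. Cyp4a14 (yellow) takes 22.8% in WT replicate 1 and 1.97% to 5.19% in the other livers.

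Genes were ranked by the likeness of their profile over the 6 livers to that of Cyp4a14. Cyp4a14 peaked in WT replicate 1, so a peak of the nearest genes there follows from this choice. Likeness was the root mean square difference of log2 CPM profiles centred on their means, taken over 9772 other genes and given as a description. Nearest was Mfsd2a, a transporter of lysophosphatidylcholine induced by fasting in liver, with a difference of 0.339 and 11.2, 9.998 and 14.7 CPM in Zpbp2 KO livers, against 70.1, 3.75 and 8.54 CPM in WT livers. Tpm2 (a tropomyosin, 0.541), Serpina7 (thyroxine-binding globulin, 0.580), Abcd2 (a peroxisomal fatty acid transporter, 0.617) and Vnn1 (the pantetheinase vanin 1, a PPARa target, 0.648) followed. Vnn1 had 21.1, 21.6 and 20.6 CPM in Zpbp2 KO livers and 50.03, 13.3 and 23.8 CPM in WT livers, with the same order of WT livers as Cyp4a14. Vnn1 was also among the 5 nearest to Cyp4a10 (0.295), after Sbk1 (0.178), St3gal5 (0.221), Stbd1 (0.255) and N4bp2l1 (0.270). Nearest to Cyp4a31 were Rab30 (0.212), Fzd7 (0.236), Gse1 (0.238), Axin2 (0.247) and Id1 (0.256).

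**Figure D5:**
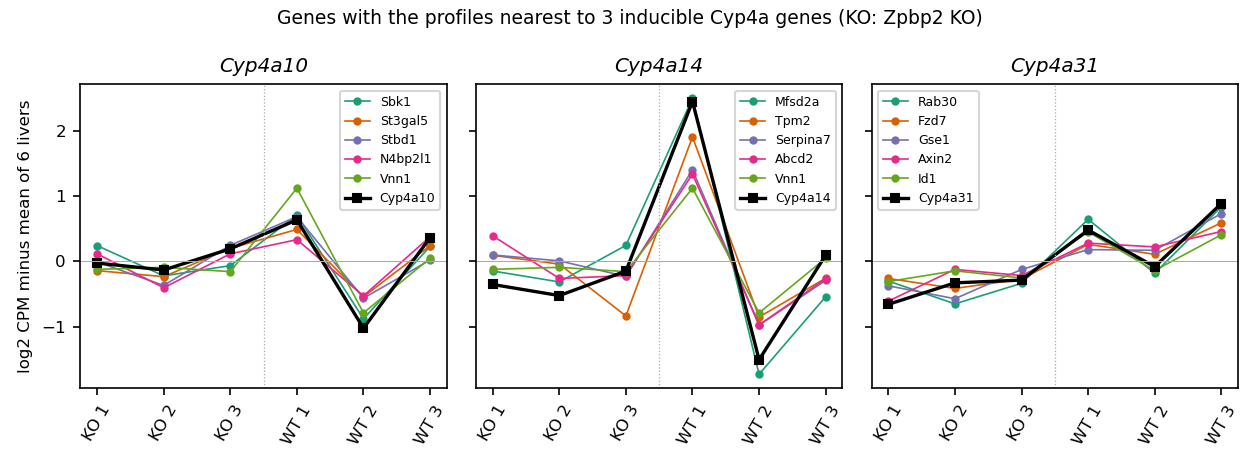
Log2 CPM minus the mean of 6 livers for Cyp4a10, Cyp4a14 and Cyp4a31 (black squares) and the 5 genes nearest to each (coloured circles), with Zpbp2 KO livers left of the dotted line and WT livers right. The Cyp4a14 group, chosen by likeness, peaks in WT replicate 1 and is lowest in WT replicate 2. Tpm2 is about as low in Zpbp2 KO replicate 3.

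PPARa itself and its other targets were listed to set the inducible Cyp4a genes beside their pathway. Of 38 tested targets other than Cyp4a, 32 had a log2 fold change below 0, with a median of -0.17. By edgeR 0 were called in either direction, while 4 on the lower side and 0 on the higher side had an unadjusted p below 0.05. Shares of all genes, for this list and the later ones, were 47.1% below 0, with 2.93% lower and 2.86% higher at that p. In 8 of the 38 all Zpbp2 KO livers lay below all WT livers, and in 0 above, against 6.01% and 5.56% of all genes. WT replicate 3 was the highest liver for 8 of the 38, next to WT replicate 1, and Zpbp2 KO replicate 2 for 6. The lowest liver was Zpbp2 KO replicate 3 for 19, WT replicate 2 for 11 and Zpbp2 KO replicate 2 for 6. Without WT replicate 1, 25 of 38 were below 0 and the median was -0.09. Pdk4 encodes a kinase that inactivates pyruvate dehydrogenase and so spares glucose. Its values were 6.36, 6.25 and 4.02 CPM in Zpbp2 KO livers, against 12.9, 13.5 and 21.5 CPM in WT livers (log2 fold change -1.53 ± 0.25, and -1.66 without WT replicate 1). DESeq2 called Pdk4 lower (adjusted p = 2.53e-06) and edgeR did not (adjusted p = 0.287). Slc22a5, the carnitine transporter (-0.73 ± 0.19), and Retsat, retinol saturase (-0.44 ± 0.12), had the next smallest p-values and no overlap between the groups.

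Ppara, the receptor gene, had 65.6, 57.1 and 117 CPM in Zpbp2 KO livers, against 137, 96.4 and 108 CPM in WT livers. Zpbp2 KO replicate 3 lay within the WT range and the other Zpbp2 KO livers below it (log2 fold change -0.51 ± 0.26, edgeR adjusted p = 0.798). Its partner Rxra stood at 435 ± 39.1 CPM in Zpbp2 KO and 452 ± 55.3 CPM in WT livers (SD, n = 3 each), a log2 fold change of -0.05 ± 0.12. Of the 12 genes for PPARa and its partners 9 lay below 0, and 6 without Zpbp2 KO replicate 1, with 0 at an unadjusted p below 0.05 in edgeR, and the corepressor gene Ncor1 (-0.21 ± 0.11) and the coactivator gene Ppargc1a (0.49 ± 0.36) came next after Ppara by p.

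Downstream of omega-hydroxylation, 12 of 18 tested genes of dicarboxylic acid formation and breakdown were below 0 (median -0.20), against 47.1% of all genes. By edgeR 0 were called. An unadjusted p below 0.05 was reached by 4 on the lower side (2.93% of all genes) and 0 on the higher side (2.86%). This list shares members with that of PPARa targets, so their counts are not independent. In 8 of the 18 the Zpbp2 KO livers lay below all WT livers, and in 1 above, against 6.01% and 5.56% of all genes. Acsl1, which activates long-chain fatty acids, had 976, 956 and 923 CPM in Zpbp2 KO livers, against 1086, 1204 and 1374 CPM in WT livers (log2 fold change -0.36 ± 0.11). Abcd3, the peroxisomal importer of dicarboxylic acids, had 591, 607 and 727 CPM in Zpbp2 KO livers and 868, 753 and 772 CPM in WT livers (-0.31 ± 0.12). Crot, carnitine octanoyltransferase of the peroxisome, had a log2 fold change of -0.35 ± 0.13. For the fatty aldehyde dehydrogenase gene Aldh3a2 the values were 280, 272 and 260 CPM in Zpbp2 KO livers and 445, 261 and 342 CPM in WT livers, again with WT replicate 1 highest (-0.37 ± 0.18). Without WT replicate 1, 13 of the 18 genes were below 0 and the median was -0.11.

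The electron donors of P450 enzymes were not called. Por, P450 reductase, had 207, 120 and 319 CPM in Zpbp2 KO livers, against 320, 127 and 169 CPM in WT livers, so livers differed within both groups by more than the group means did (log2 fold change 0.07 ± 0.40). Cyb5a, cytochrome b5, had 860, 912 and 661 CPM in Zpbp2 KO livers and 704, 585 and 688 CPM in WT livers (0.30 ± 0.14), and Cyb5r3, its reductase, lay higher in all Zpbp2 KO livers than in any WT liver (0.24 ± 0.11). Cyb5b (-0.09 ± 0.11) and Pgrmc1 made up the list of 5, in which 1 gene lay above WT without overlap and 0 below. Shares of all genes were 5.56% and 6.01%.

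Of the 12 other Cyp4 genes listed, 7 were tested, 2 with a log2 fold change below 0 and 5 above (median 0.04), and 0 were called by edgeR. Cyp4f39, singled out after its values were seen, had an unadjusted p of 0.0280 and stood at 0.361 ± 0.0862 CPM in Zpbp2 KO and 0.666 ± 0.172 CPM in WT livers (SD, n = 3 each), without overlap. Among the 7, 1 lay below without overlap and 0 above, against 6.01% and 5.56% of all genes. Cyp4f15, the most abundant of these 7 per kilobase, stood at 143 ± 5.58 CPM in Zpbp2 KO and 143 ± 5.46 CPM in WT livers (SD, n = 3 each), and Cyp4f13 at 81.3 ± 4.99 and 79.1 ± 5.54 CPM. Cyp4f17 (-0.20 ± 0.22) and Cyp4f16 (0.22 ± 0.23) overlapped between the groups. Cyp4a29 had 0 counts in all libraries, and Cyp4a30b, Cyp4f37, Cyp4f40 and Cyp4x1 did not pass the filter on low counts.

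Genes of the neighbouring arachidonic acid routes were measured for comparison. Of 15 tested epoxygenase and epoxide hydrolase genes 0 were called by edgeR, 2 on each side of 0 had an unadjusted p below 0.05, and the median log2 fold change was 0.16 with all livers and -0.0061 without Zpbp2 KO replicate 2. Cyp2c54 (0.49 ± 0.12) and Cyp2c55 (0.57 ± 0.15), P450 genes of the Cyp2c subfamily, lay above WT in all Zpbp2 KO livers, and Ephx1, microsomal epoxide hydrolase (-0.43 ± 0.12), below. Among the 15 genes, 3 lay above without overlap and 2 below, against 5.56% and 6.01% of all genes. Ephx2, which hydrolyses epoxides of arachidonic acid, had 739, 808 and 668 CPM in Zpbp2 KO livers and 882, 788 and 861 CPM in WT livers (-0.19 ± 0.11). Of 14 tested eicosanoid enzymes 0 were called and 0 reached an unadjusted p below 0.05, with Ptgds (0.60 ± 0.28), Alox5ap (0.40 ± 0.31) and Pla2g12b (0.16 ± 0.16) having the smallest p among those whose mean log2 CPM was above 0.

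Male bias was set beside the Cyp4a12 pair. Of 22 tested male-biased genes other than Cyp4a12, 13 were below 0 (median -0.10, and 0.02 without Zpbp2 KO replicate 3), 0 were called by edgeR, and 3 on the lower side and 0 on the higher side had an unadjusted p below 0.05. These were Mup20, a urinary pheromone protein (-0.61 ± 0.11), Cyp2u1 (-0.35 ± 0.13), a fatty acid hydroxylase that stands on the epoxygenase list too, and Gstp2, a glutathione transferase (-0.82 ± 0.31). DESeq2 called Mup20 (adjusted p = 0.000343). The female-biased genes had 9 of 20 tested, with a median of -0.13, 0 called by edgeR and 0 at an unadjusted p below 0.05. Of these 9 genes 5 were below 0 with all livers and 1 without WT replicate 1, where the median was 0.33. Among those whose mean log2 CPM was not below 0, Fmo2 (0.42 ± 0.28), Abcd2 (-0.37 ± 0.52) and Cyp17a1 (-0.32 ± 0.48) had the smallest p. These 3 overlapped between the groups, and for Abcd2 and Cyp17a1 WT replicate 1 was the highest liver. The 9 log2 fold changes ran from -0.58 to 1.37. The highest was that of Cyp2b10, at a low level (0.371 CPM per kilobase in Zpbp2 KO and 0.141 in WT livers).

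Of the 14 genes of growth hormone and androgen control 7 were below 0, 0 were called by edgeR and 1, Bcl6, had an unadjusted p below 0.05. Bcl6, a repressor in growth hormone signalling of liver, had 21.96, 24.1 and 14.5 CPM in Zpbp2 KO livers, against 68.4, 15.2 and 74.7 CPM in WT livers (-1.39 ± 0.50), and Stat5a (-0.51 ± 0.23) and Stat5b (-0.22 ± 0.14) overlapped as well. Of 15 tested clock genes 0 were called, 7 lay below 0 and 0 reached an unadjusted p below 0.05 by edgeR; without Zpbp2 KO replicate 3, 14 of the 15 lay below 0. Smallest in p were Clock (-0.50 ± 0.22), Cry1 (-0.45 ± 0.25) and Per2 (0.68 ± 0.44). Of 12 tested genes near the Cyp4a cluster on chromosome 4, Pdzk1ip1 (0.46 ± 0.17) was above WT in all Zpbp2 KO livers, Uqcrh (0.21 ± 0.13) and Efcab14 (-0.14 ± 0.12) overlapped, and 0 were called. Among the 12, 1 lay above without overlap and 0 below, against 5.56% and 6.01% of all genes.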

How the data were processed

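Raw read counts of Ensembl gene IDs, as deposited and without any scaling, were the starting point; every value in the table is whole. STAR, Picard, HTSeq and the build mm9 are named per the submitters' processing notes; their versions, the annotation and the strand setting are not stated in those notes. All 6 columns matched a sample title. Symbols came from GENCODE M21 and RefSeq tables for 32919 of 37991 IDs. Exon lengths and coding sequences are those of GENCODE M21 (GRCm38), so no coordinates are given.

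Genes were kept by edgeR's filterByExpr (minimum count 10), scaled by TMM and tested with the quasi-likelihood F-test, two-sided (edgeR 4.0.16, R 4.3.3), calling adjusted p below 0.05 over 14686 genes. Values after ± are SDs of 3 livers for levels and SEs for log2 fold changes. DESeq2 1.42.0 and limma-voom (limma 3.58.1), run on the same genes, other scalings and filters, a replicate block, a robust fit, summed copies and each library left out were alternatives. The test was also run on simulated counts. The share of shifts recovered there is not given, so how well shifts of the members' size are found is not shown.

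Replicates differed by a chi-square of 19.9 to 102 per gene (102.5 at most), so none was a repeat of another. The labels name 1 library per liver. A count of 0 allows 3 counts, 0.0567 to 0.0791 CPM, for counting error only.

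The members, lists and rules were chosen with earlier results of these data known. Named were the members, fixed partners (Ppara, Rxra, Por, Cyb5a, Aldh3a2, Ephx2, Zpbp2), the 3 genes of smallest p and mean log2 CPM not below 0 in each list, and the 5 nearest profiles; others were chosen after their values were seen.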

Additional observations from a re-analysis of the deposited data

How the results depend on the processing

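The count of members called was 0 under every alternative run. Over all genes, edgeR called 2 lower and 0 higher, DESeq2 49 and 27, and edgeR with no filter on low counts 9 and 3, while leaving out 1 library gave 2 to 4 lower and 0 to 1 higher. Of 115 recomputed member values 6 changed sign. Cyp4a10 stood at 0.0253 with limma-voom and at 0.0134 with the replicate block, both near 0, and between -0.49 and 0.19 with 1 library left out. Under the same leaving out, Cyp4a14 ranged from -2.04 to 0.17, Cyp4a12a from -0.14 to 0.0621 and Cyp4a12b from -0.0468 to 0.24; the signs of Cyp4a10, Cyp4a14 and Cyp4a12b turned without WT replicate 1 and that of Cyp4a12a without Zpbp2 KO replicate 3. Cyp4a14 was -0.69 with limma-voom and -0.65 with the replicate block. Cyp4a31 ranged from -1.12 to -0.66 and Cyp4a32 from -1.03 to -0.38. Other named genes that changed sign with 1 library left out were Cyp4f13 (-0.0225 to 0.0939), Cyp4f17 (-0.42 to 1.87e-05), Rxra (-0.14 to 0.0443), Ppargc1a (-0.11 to 0.79), the Kupffer cell marker Cd5l (-0.0106 to 0.67), the endothelial marker Lyve1 (-0.0833 to 0.48), Por (-0.33 to 0.54), Abcd2 (-0.75 to 0.58) and Cyp17a1 (-0.83 to 0.33). The cause was not tested. Pdk4 was also called with no filter (adjusted p = 0.0496 by edgeR). Same-numbered livers had correlations across genes of 0.14, 0.20 and -0.24, and differently numbered livers of -0.32 to 0.23. With 3 livers centred within each group, these values cannot show whether the numbers pair animals. The replicate block gave 2 genes lower, 0 higher and 0 members. Counts and medians of gene lists with 1 library left out were added after the data were seen; PPARa targets and dicarboxylic acid genes below 0 ran from 25 to 35 of 38 and 11 to 14 of 18.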
